A study of Mus musculus with 3 samples.

Results

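Wide PU.1 intervals are the stretches of the merged PU.1 interval list that span 2000 bp or more from start to end. They were chosen by this measured width, and they number 2166 of 49385 merged intervals, or 4.39% (Clopper-Pearson 95% interval 4.21 to 4.57%, counting error only), and the 47219 merged intervals under 2000 bp are the rest of the series. Since the width is itself a readout, everything that rests on the peak calls is given as a description without a test. The data come from chromatin immunoprecipitation with sequencing (ChIP-seq) of i660BM cells, a C57BL/6 line of pro-B cells in which doxycycline switches on PU.1 from an introduced construct, and no library of uninduced cells was analysed here. Both PU.1 libraries were made from cells grown in IL-7 and exposed for 24 h to doxycycline at 70 ng/ml to induce PU.1, and used the rabbit polyclonal PU.1 antibody T-21. They carry the numbers 2 and 3 in the labels and are called replicate 2 and replicate 3 here. Whether these were separate cultures is not stated in the labels, so that any spread between them may be technical, and 1 input DNA sample was not analysed here.

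PU.1 is the product of Spi1 and belongs to the ETS transcription factors. It binds purine-rich DNA built around a GGAA core, often beside partner factors such as IRF proteins. The protein is needed for both lymphoid and myeloid development, and the fate of a progenitor depends on its dose, with high amounts favouring macrophages and lower amounts favouring B cells. A single ETS site is a few bases long, so an interval of this width holds room for many sites, and a peak list alone does not say how many of them were occupied. Peak lists carry no expression values, so the labelled cell type could not be checked against its marker genes.

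The promoters below lie inside wide intervals and hold the PU.1 consensus core GAGGAAGT or its reverse complement, which is why they are shown. Each is the 250 bases before the RefSeq start site of the gene in GRCm38.p6 (the same build as mm10), written 5′ to 3′ on the strand of the gene. Capitals mark every match to GAGGAA or GAGGAAGT on either strand, and GAGGAA is contained in GAGGAAGT. A position is that of the first base of the core in the printed sequence, counted back from the start site. Cd72, an inhibitory B cell coreceptor, is shown at chr4:43454627-43454876 (minus strand) with its GAGGAA core at position -47. Rel, an NF-kB subunit, is shown at chr11:23770970-23771219 (minus strand) with the core at position -189. Cd37, a tetraspanin of B cells, is shown at chr7:45238840-45239089 (minus strand) with cores at positions -168 and -23. Fcrl1, an Fc receptor-like protein of B cells, is shown at chr3:87376137-87376386 (plus strand) with cores at positions -93 and -13. Cd37 and Fcrl1 were chosen after their values were seen.
Cd72: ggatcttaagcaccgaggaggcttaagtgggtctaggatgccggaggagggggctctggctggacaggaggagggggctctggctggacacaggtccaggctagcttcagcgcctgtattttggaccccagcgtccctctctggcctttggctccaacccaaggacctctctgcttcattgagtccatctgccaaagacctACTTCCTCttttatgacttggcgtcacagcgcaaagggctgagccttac
Rel: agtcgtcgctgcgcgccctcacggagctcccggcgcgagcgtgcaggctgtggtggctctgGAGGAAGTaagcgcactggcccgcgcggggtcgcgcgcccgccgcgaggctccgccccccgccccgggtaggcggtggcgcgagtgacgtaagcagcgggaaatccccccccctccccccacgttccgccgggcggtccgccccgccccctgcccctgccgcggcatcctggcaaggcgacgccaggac
Cd37: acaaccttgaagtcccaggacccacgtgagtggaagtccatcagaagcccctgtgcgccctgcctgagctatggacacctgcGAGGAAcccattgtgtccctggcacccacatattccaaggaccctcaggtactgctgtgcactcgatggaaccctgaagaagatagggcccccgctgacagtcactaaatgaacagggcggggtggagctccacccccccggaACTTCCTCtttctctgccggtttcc
Fcrl1: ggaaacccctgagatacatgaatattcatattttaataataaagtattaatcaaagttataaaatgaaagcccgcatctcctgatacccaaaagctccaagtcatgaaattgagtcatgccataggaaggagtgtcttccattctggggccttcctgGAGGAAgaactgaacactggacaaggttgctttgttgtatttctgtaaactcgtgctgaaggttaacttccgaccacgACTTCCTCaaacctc

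The interval around the Cd72 promoter spanned 3189 bp and held 1 replicate 2 peak with a score of 3025 and no replicate 3 peak. The score is the value given by the authors' peak caller, read as minus 10 times the log10 of the p-value of the peak, and it can be compared only within a list. The Rel interval spanned 2700 bp with scores of 3178 in replicate 2 and 113.5 in replicate 3. The Cd37 interval spanned 2588 bp, with a score of 3100 in replicate 2 and 2 replicate 3 peaks scored 150.4 and 638. Fcrl1 lay in 2037 bp with scores of 3100 in replicate 2 and 112.8 in replicate 3. All 4 promoters lay in intervals with a replicate 2 score near its ceiling of about 3100, while 3 of the 4 also held a peak of the other library. They were picked from 61 windows in wide intervals with the consensus, so their scores do not describe such windows in general. A replicate 2 score of 3100 or more was reached by 23.6% of all wide intervals. Of all wide intervals with a replicate 2 score of 3100 or more, 90.6% held a replicate 3 peak. From 1600 to 3100, the class of the Cd72 interval, 35% did.

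Matches of the same motifs were counted in every window of 300 bases around a start site (250 before to 50 after). Of 21262 windows, 4.54%, or 966 windows of 809 genes, lay wholly inside a wide interval. GAGGAAGT, searched on both strands, occurred in 6.31% of the windows in wide intervals (61 of 966, 4.86 to 8.04%), in 5.74% of those in other merged intervals (278 of 4846, 5.10 to 6.43%) and in 2.12% of those not wholly inside a merged interval (327 of 15450, called outside here). All windows together held it in 3.13%. The shorter core GAGGAA was found in 35.5% of windows in wide intervals, 32.9% of those in other merged intervals and 25.2% of those outside, against 27.4% of all windows. The ETS-IRF composite element (GGAA, any 2 bases, then GAAA, on either strand and free to overlap the other motifs) occurred in 2.9%, 2.83% and 2.41% of the same classes and in 2.53% of all windows. Windows in wide and in other merged intervals therefore held the consensus at shares whose intervals overlap, and both were above the share in windows outside. Base composition moved along with these classes, with a median GC content of 63% in wide intervals, 61% in other merged intervals and 54% outside, and its part in the motif shares was not tested.

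Most wide intervals were only modestly wider than the threshold. Their median width was 2301 bp (quartiles 2116 and 2637 bp, highest 16601 bp), against a median of 1067 bp (lowest 434 bp) for the other merged intervals. Of the wide intervals, 1440 (66.5%) spanned less than 2500 bp and 240 spanned 3000 bp or more. Together they held 5.36 of the 59.2 Mb in merged intervals, or 9.05%. The distribution ran through the threshold without a gap. Just inside it, at 2000 bp, lay intervals near Insig2, inside Ptprc and inside B3gnt2, with replicate 2 scores of 791.4, 3100 and 717.9, and just outside it, at 1999 bp, lay intervals near Hddc2, inside Trim17 and at C030006K11Rik, with replicate 2 scores of 638.4, 3100 and 454.1.

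**Figure D1:**
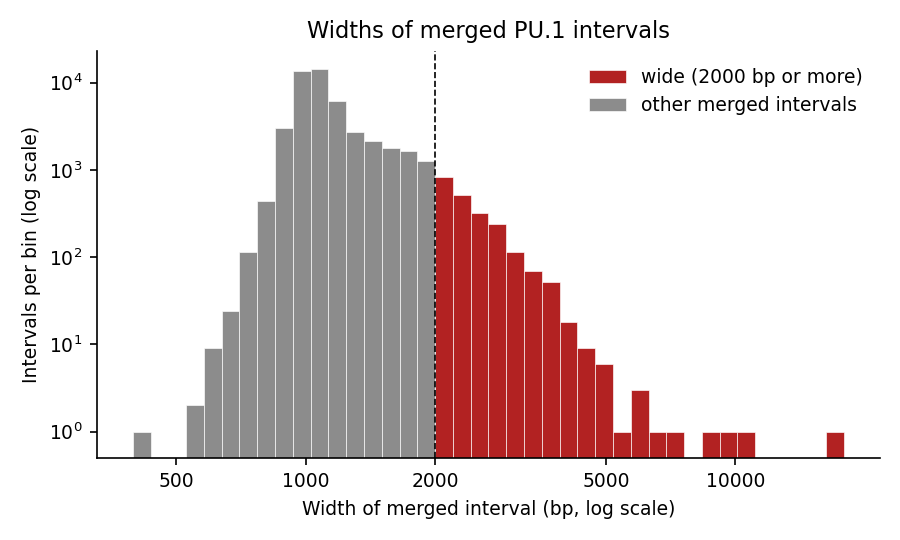
Number of merged intervals per width bin, with width in bp and interval counts both on log scales. Red bars are the 2166 wide intervals, grey bars the 47219 other merged intervals, and the dashed line is the 2000 bp threshold; counts decline through the threshold with no break, out to 1 interval of 16601 bp.

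A wide interval usually held 1 broad replicate 2 peak call and not several separate calls. Whether a broad call joined several neighbouring summits was not examined. Of the wide intervals, 1993 (92%) held 1 replicate 2 peak, 170 held 2 and 3 held 3, and none lacked one. An interval with 2 or more replicate 2 peaks was found 173 times among the wide ones (7.99%, 6.88 to 9.21%) and 155 times among the others (0.328%), against 0.664% of all merged intervals. The 2342 replicate 2 peaks in wide intervals were 3.14% of that list of 74494 and had a median width of 2237 bp, against 1057 bp for those in other intervals. Other merged intervals held 47213 peaks of that list, so a large part of it lay in no merged interval. The much shorter replicate 3 list of 6169 peaks placed 725 of them (11.8%) in wide intervals and 5444 in other merged intervals. The 3.14% and 11.8% are therefore not shares of like lists. A replicate 3 peak was present in 691 wide intervals (31.9%, 29.9 to 33.9%) and in 5443 others (11.5%, 11.2 to 11.8%), against 12.4% of all merged intervals. How the intervals were made is not given, and 14 merged intervals held no peak of either list. Replicate 2 peaks covered 97.1% of the bases of wide intervals. Width, score and peak number are therefore not independent, and these differences are in part set by the choice of wide ones.

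Within wide intervals the replicate 3 peaks were narrow. Their median width was 1028 bp, close to the 973 bp of replicate 3 peaks in other intervals, so that they covered a median of 44.96% of the wide interval they lay in and 79% of other intervals. Replicate 2 peaks covered a median of 99.24% of a wide interval. Summed over all wide intervals, 97.1% of bases lay in replicate 2 peaks, 15.7% in replicate 3 peaks and 2.89% in neither. Replicate 3 had 15 peaks of 2000 bp or more, and all 15 lay in wide intervals. The broadest replicate 3 peaks spanned 9066 bp near Zmat1, 6230 bp near Sfi1 and 3300 bp near Spertl. The intervals near Bcl11a and Blnk and at Socs2 and Actb also carried such a broad replicate 3 peak, of 2230, 2010, 2027 and 2004 bp.

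Scores were higher in wide intervals in the replicate 2 list and nearly level in the replicate 3 list. The highest replicate 2 score in a wide interval had a median of 1645 (quartiles 918.9 and 2985), against 425.1 (228.2 and 985.2) in the others. A replicate 2 score of 3100 or more was reached by 511 wide intervals (23.6%) and by 2173 others (4.6%). Where a replicate 3 peak was present, its highest score had a median of 150.9 in the wide intervals (quartiles 98.74 and 261.1, n = 691) and 134.3 in the others (93.57 and 224.9, n = 5443). A higher replicate 2 score went with a replicate 3 peak in both sets, so the share was also read within classes of replicate 2 score, which were chosen after the data were seen. Between 800 and 1600, 2.8% of wide intervals (17 of 608) and 7.72% of others held a replicate 3 peak. Between 1600 and 3100 the shares were 35% of wide intervals (210 of 600, 31.2 to 39%) and 59.3% of others (57.9 to 60.8%), and at 3100 or more they were 90.6% of wide intervals (463 of 511, 87.7 to 93%) and 97.5% of others (96.7 to 98.1%). Within each of these 3 classes of replicate 2 score the share of wide intervals was thus the lower, with counting intervals that do not overlap, although over all scores it was the higher. Below 400 none of 114 wide intervals held one, with an upper Clopper-Pearson 95% limit of 3.18%, and from 400 to 800 1 of 333 did.

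**Figure D2:**
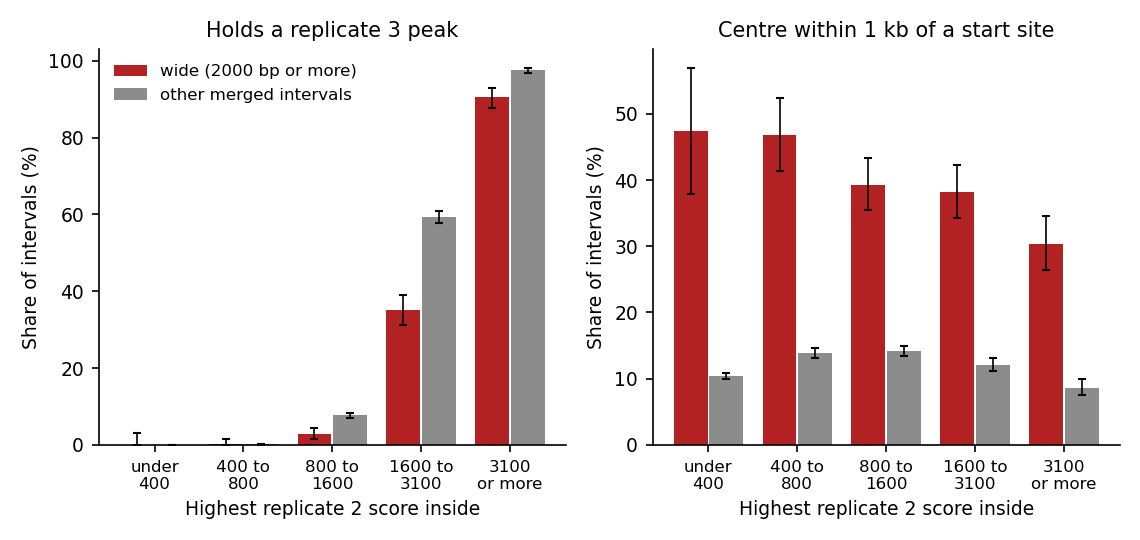
Share of intervals (%) that hold a replicate 3 peak (left panel) and whose centre lies within 1 kb of a start site (right panel), by the highest replicate 2 score inside, with wide intervals in red and other merged intervals in grey; error bars are Clopper-Pearson 95% intervals. The replicate 3 share climbs with score in both sets and is 90.6% in wide and 97.5% in other intervals in the top class, while the start-site share is higher in wide intervals in all 5 classes.

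Wide intervals lay at start sites of protein-coding genes far more often than other merged intervals did. The centre fell within 1 kb of a start site for 833 wide intervals (38.5%, 36.4 to 40.5%) and 5594 others (11.8%, 11.6 to 12.1%), against 13.0% of all merged intervals. For 4405 genes without a start site of known strand, both span ends are called start sites here. Some of these intervals may therefore lie at the far end of a gene. It fell elsewhere in a protein-coding gene for 30.1% of wide intervals and 39.6% of others (39.2% of all), in another kind of gene for 7.48% and 8.57% (8.53% of all), and outside every gene for 518 wide intervals (23.9%, 22.1 to 25.8%) and 39.9% of others (39.2% of all). The median distance from centre to start site was 4.604 kb for the wide intervals and 23.25 kb for the others. Centres over 100 kb from any start site made up 7.8% of wide intervals and 20.3% of others. Exons, introns and UTRs were not separated, because the gene table used here gives only the span of a gene.

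The surplus at start sites was present at every level of the replicate 2 score. With a score under 400 the start-site share was 47.4% of wide intervals and 10.4% of others. At 3100 or more it was 30.3% of wide intervals (26.4 to 34.5%) and 8.65% of others (7.5 to 9.91%). In the 3 classes between, wide intervals had shares of 38.2 to 46.8% and others 12.1 to 14.2%. Wide intervals at start sites had lower scores than wide intervals elsewhere. A replicate 3 peak was held by 24% of the 833 wide intervals at start sites and by 36.8% of the 1333 elsewhere, and their median replicate 2 scores were 1459 and 1782. Of 694 wide intervals at a start site of known strand, 57.1% (53.3 to 60.8%) had their centre downstream of it, with a median offset of 87.5 bp into the gene. The share was 43.9% of 4563 other intervals at such a start site, with a median offset of -21 bp. Start sites of a pair of genes on opposite strands lay within 1 kb of the centre in 9.94% of these wide intervals and 10.3% of the others, a difference smaller than the counting error.

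Across the full range of widths the location shifted gradually. The start-site share was 4.75% under 1000 bp, 12.5% from 1000 to 1500 bp, 26.7% from 1500 to 2000 bp, 36% from 2000 to 2500 bp, 44.2% from 2500 to 3000 bp, 43.7% from 3000 to 4000 bp and 31.7% (13 of 41, 18.1 to 48.1%) at 4000 bp or more. The share with a replicate 3 peak climbed over the same classes, from 0.149% under 1000 bp through 29.4% from 2000 to 2500 bp to 48.8% (20 of 41, 32.9 to 64.9%) at 4000 bp or more. The widest class rests on 41 intervals, and its counting intervals overlap those of the class before it.

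**Figure D3:**
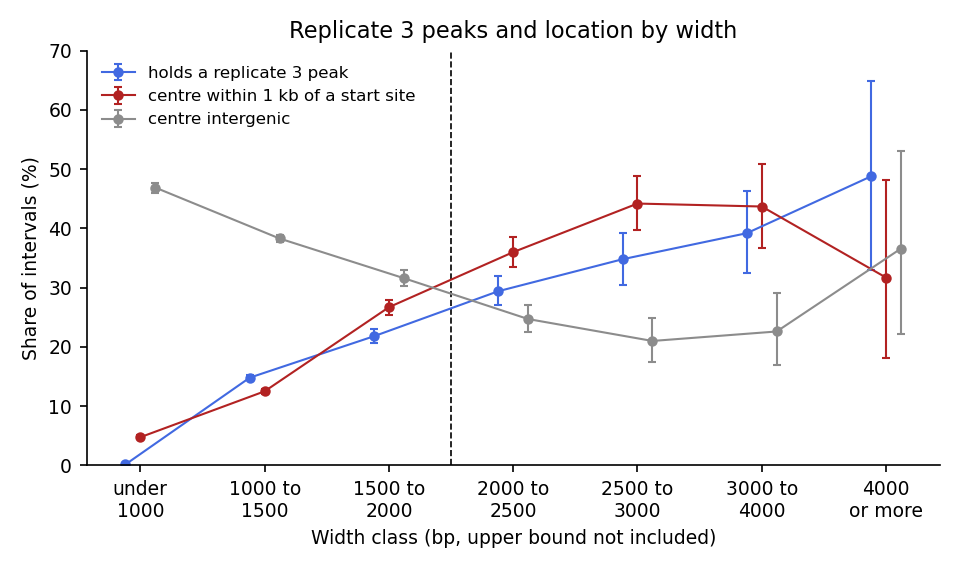
Share of merged intervals (%) in 7 width classes (bp) that hold a replicate 3 peak (blue), have their centre within 1 kb of a protein-coding start site (red) or have it outside every gene (grey), with Clopper-Pearson 95% intervals; the dashed line is the 2000 bp threshold. Start-site and replicate 3 shares are higher in the wider classes up to 3000 bp, with no step at the threshold, and the start-site share is 31.7% in the class of 4000 bp or more.

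Chromosomes differed in how much of their merged list was wide. The share was highest on chromosomes 10 (6.59%, 211 of 3202) and 5 (6.16%, 197 of 3199) and lowest on the X chromosome (1.52%, 20 of 1316, 0.931 to 2.34%), beside 4.39% over all chromosomes. The X chromosome held few wide intervals but also the widest one. Of the wide intervals, 1528 (70.5%) touched a protein-coding gene, and the nearest protein-coding genes numbered 1864. A wide interval within 5 kb of an end of the gene was found for 1547 of 21896 protein-coding genes (7.07%), and any merged interval for 11635 (53.1%).

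Of the 10 widest intervals, 6 lay over 10 kb from the nearest protein-coding gene. The widest spanned 16601 bp at chrX:135040236-135056836, inside the noncoding gene 3632454L22Rik and 31 kb from Zmat1, with 1 replicate 2 peak over its whole length (score 3100) and 3 replicate 3 peaks of up to 721.7. An interval of 11090 bp lay 692 kb from the cadherin gene Cdh10 (replicate 2 score 3100, 3 replicate 3 peaks of up to 279). Another, of 8804 bp, lay 1433 kb from the protocadherin gene Pcdh10 (replicate 2 score 3100, 4 replicate 3 peaks of up to 350.9). These intervals were among the few with several replicate 3 peaks, since 30 wide intervals and 1 other merged interval held 2 or more. Tnrc18 held 7071 bp with 2 replicate 2 peaks of 2786 and 923.9 and no replicate 3 peak. An interval of 6302 bp lay 25.7 kb from Sfi1 with scores of 1660 in replicate 2 and 304.3 in replicate 3, and 1 of 5918 bp lay 10.9 kb from the olfactory receptor gene Olfr1234 with a replicate 2 score of 3100 and 2 replicate 3 peaks of 109.3 and 241.7.

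The remaining 4 of the 10 widest lay at or near Gm5373 (9391 and 5511 bp), A530032D15Rik (5896 bp) and 4930467E23Rik (5743 bp), and none of them held a replicate 3 peak. Between 57.9 and 70.4% of their bases were in no peak of either list. Of all wide intervals, 11 had 50% or less of their length in peaks, the others being near Gm7592, 9530057J20Rik, Gm52481, Gm15319, Gm31160, Actb and H1f3. The sources used here do not give how the merged list was made, and its ends are not always those of the peaks. Of 2436 replicate 2 peaks of 2000 bp or more, 1858 touched a wide interval, 522 touched only narrower merged intervals and 56 touched none. A replicate 2 peak was shared with another merged interval by 25 wide intervals.

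**Figure D4:**
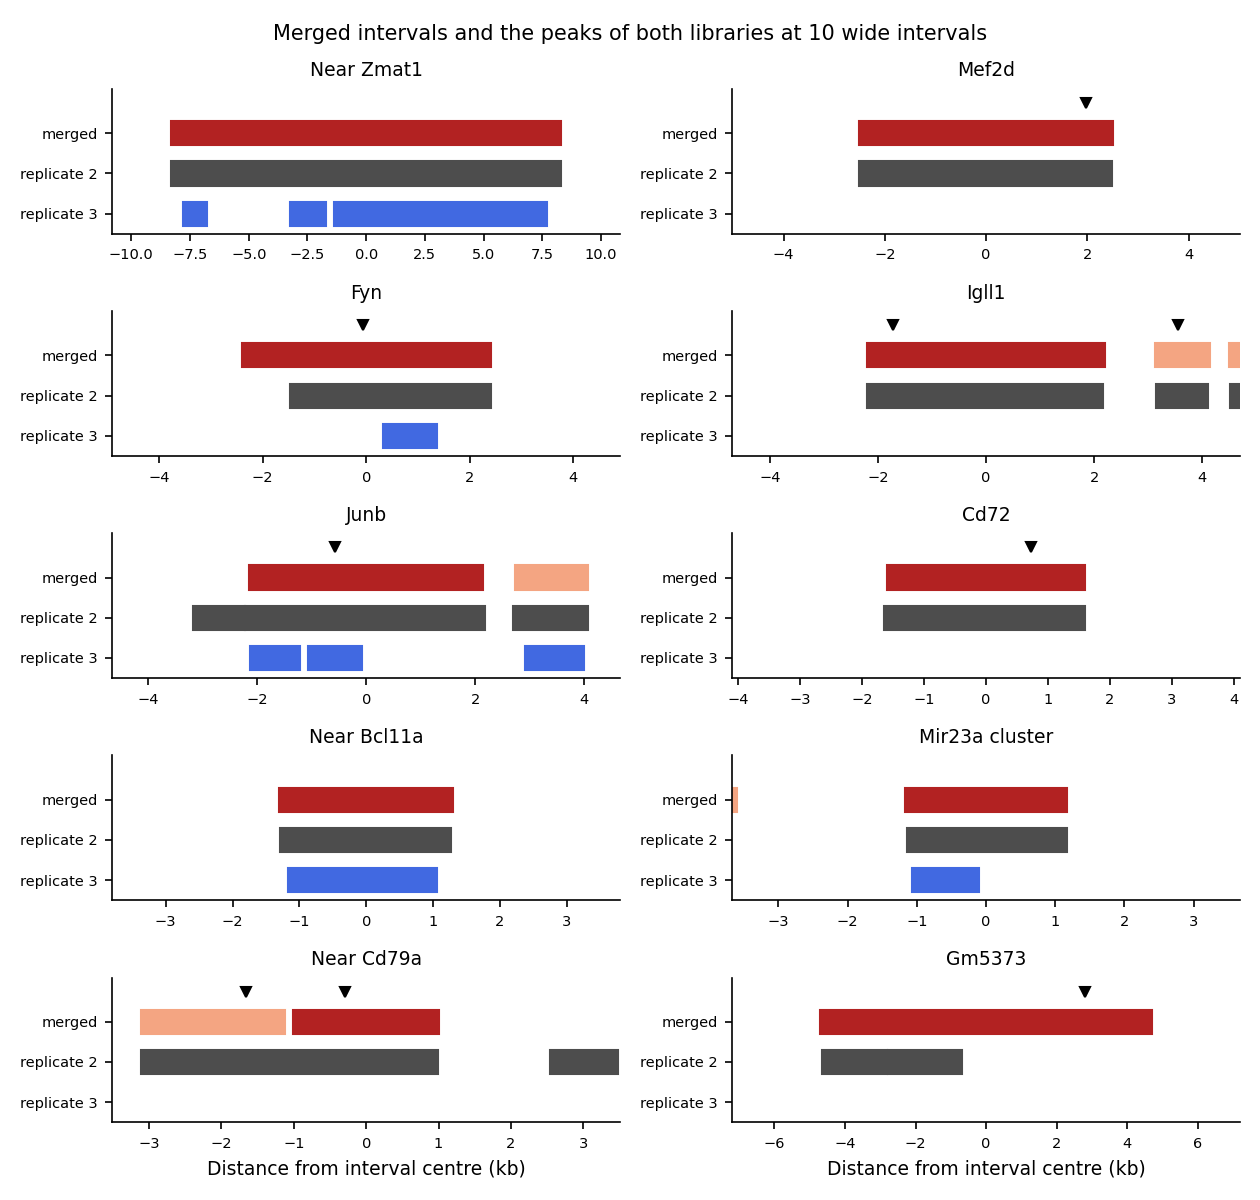
Layout of 10 wide intervals, as distance from the interval centre in kb. Bars show merged intervals (dark red for wide, light red for narrower ones), replicate 2 peaks (dark grey) and replicate 3 peaks (blue), and black triangles mark start sites of known strand. Replicate 2 peaks span most of each interval except at Gm5373, whereas replicate 3 peaks, where present, cover a smaller stretch except near Bcl11a and Zmat1.

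A minority of wide intervals held 2 or more replicate 2 peaks (7.99%, against 0.328% of other merged intervals). The largest number was 3, found near the protease gene Tmprss13 (2896 bp, replicate 2 scores of 1199, 1720 and 2981, replicate 3 score 82.76), at the lipid kinase gene Pi4k2a (2812 bp, replicate 2 scores of 316.1, 112.1 and 267.9) and at the receptor gene Lrp12 (2456 bp, replicate 2 scores of 112.3, 71.4 and 124.1), the last pair with no replicate 3 peak. Cited2, a transcriptional coregulator, had an interval of 5107 bp with replicate 2 scores of 877.1 and 2121 and a replicate 3 score of 84.98, and a further interval of 3872 bp lay 180 kb away. N4bp2l1 had 4167 bp with replicate 2 scores of 2496 and 3140 and 2 replicate 3 peaks of up to 249.7. An interval of 4639 bp near Psd2 had replicate 2 scores of 1060 and 3100 and a replicate 3 score of 276.3, and 1 of 4361 bp near Supt4a, which encodes a transcription elongation factor, had replicate 2 scores of 3100 and 1388 and a replicate 3 score of 108.

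The wide intervals with the highest replicate 3 scores spanned 2051 to 2674 bp and were centred 10.3 kb or more from the nearest start site. Both lists reached 3100 at intervals near Bcl11a (2595 bp), Macroh2a1 (2470 bp, 57.7 kb away), Epg5 (2359 bp, inside the gene), Unc5cl (2182 bp, 17.7 kb away) and Esr1 (2095 bp, 9.28 kb away). Next in replicate 3 score came intervals inside Smyd3 (3057) and Vsnl1 (2584), near Atp1b3 (2479) and Fat4 (2399) and near Nipbl (2059), each with 3100 in replicate 2. The interval near Bcl11a, whose zinc-finger product B cells need to develop, lay at chr11:24173898-24176492, 0.34 kb beyond the far end of the gene and 94.5 kb from its start site.

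Genes of B cell receptor (BCR) signalling had wide intervals in 10 of 30 cases (33.3%, 17.3 to 52.8%), beside 7.07% of all protein-coding genes. A merged interval of any width was found for 27 of the 30, beside 53.1% of all protein-coding genes. In lists described below it was found for 28 of 32 B-lineage, 19 of 22 IL-7 and 24 of 28 NF-kB genes. It was also found for 12 of 14 MHC class II, 27 of 36 myeloid and 11 of 18 erythroid genes. The 7.07% therefore mixes having an interval with its width. Of the receptor chains, Cd79b had 2836 bp at chr11:106313221-106316056, centred 0.077 kb from its start site, with a replicate 2 score of 1481 and no replicate 3 peak. The interval counted for Cd79a, 2013 bp at chr7:24903637-24905649 with a replicate 2 score of 2157 and no replicate 3 peak, was centred at the start of the neighbouring Arhgef1, 1.78 kb from Cd79a, and its 4093 bp replicate 2 peak was divided over 2 merged intervals. Among the Src-family kinases, which phosphorylate the receptor tails, Fyn had the widest interval of the list at 4810 bp (chr10:39367460-39372269), with a replicate 2 score of 3100 and a replicate 3 score of 85.08. Lyn had 3276 bp with a replicate 2 score of 2840 and no replicate 3 peak. Both kinase intervals were centred at the start site. Deeper inside Fyn lay intervals of 2229 bp (replicate 2 score 2281, no replicate 3 peak) and 2317 bp (scores of 2705 in replicate 2 and 159.8 in replicate 3).

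Downstream of the receptor, the phosphoinositide kinase subunits Pik3cd (2940 bp, 2 replicate 2 peaks of 1376 and 569.1) and Pik3r1 (2266 bp, replicate 2 score 2060) had wide intervals without a replicate 3 peak. The adaptor genes had peaks of both libraries. Blnk had 2293 bp at chr19:40997323-40999615, 3.1 kb outside the gene, with scores of 3100 in replicate 2 and 412.6 in replicate 3, and Grb2 had 2332 bp inside the gene with scores of 3100 in replicate 2 and 159.7 in replicate 3. Vav3 had 2199 bp with scores of 2694 in replicate 2 and 90.03 in replicate 3. Of the 10 genes, 4 (Fyn, Grb2, Blnk and Vav3) thus had a replicate 3 peak in an interval within 5 kb of a gene end. This is close to the 31.9% of all wide intervals that held one. The inhibitory coreceptor gene Cd72, described above, had none. No wide interval lay within 5 kb of, or inside, the kinase genes Btk and Syk, whose widest merged intervals were 1550 and 1687 bp.

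Transcription factors of the B lineage had wide intervals in 11 of 32 cases (34.4%, 18.6 to 53.2%), beside 7.07% of all protein-coding genes. Ebf1 and Pax5, which specify and maintain B cell identity, had intervals without a replicate 3 peak. That of Ebf1, 2201 bp at chr11:44615731-44617931, lay 0.169 kb outside the gene with a replicate 2 score of 1123, and another of 2233 bp lay deep inside the gene with a score of 1275. Pax5 had 2361 bp at chr4:44704315-44706675 inside the gene, 5.2 kb from its start site, with a replicate 2 score of 369.3. Of the Ikaros-family genes, Ikzf1 had intervals of 2708 and 2323 bp (replicate 2 scores of 1485 and 2079) and Ikzf3 had 2525 bp at its start site (replicate 2 score 881.5), all without a replicate 3 peak. The Ikzf1 interval of 2708 bp lay 2.85 kb outside the gene, centred 87 kb from its start site. A further interval inside Ikzf3, of 2428 bp and 29.1 kb from its start site, had scores of 3216 in replicate 2 and 121.7 in replicate 3.

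Of the POU factors, Pou2f2 had 2550 bp with scores of 3100 in replicate 2 and 253.1 in replicate 3, centred 48.5 kb from its start site. Their coactivator gene Pou2af1 had 2414 bp at the start site with a replicate 2 score of 771 and no replicate 3 peak. Cbfb, the partner subunit of Runx proteins, had 2926 bp with a replicate 2 score of 3100 and 2 replicate 3 peaks of 219.6 and 161.8. Mef2d had the widest interval of this list at 5025 bp, with a replicate 2 score of 1335 and no replicate 3 peak, and another of 2292 bp inside the gene with scores of 3015 in replicate 2 and 134.5 in replicate 3. The ETS factor genes Fli1 (2276 bp, scores of 3100 in replicate 2 and 215.1 in replicate 3) and Spib (2334 bp, replicate 2 score 802.8 and no replicate 3 peak) were also counted. The Spib interval was centred 1.03 kb from the start of the neighbouring Mybpc2 and 6.38 kb from that of Spib. Spi1 itself had no wide interval. Its widest merged interval, of 1837 bp with scores of 2599 in replicate 2 and 74.23 in replicate 3, held part of a 3088 bp replicate 2 peak that was divided over 2 merged intervals.

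**Figure D5:**
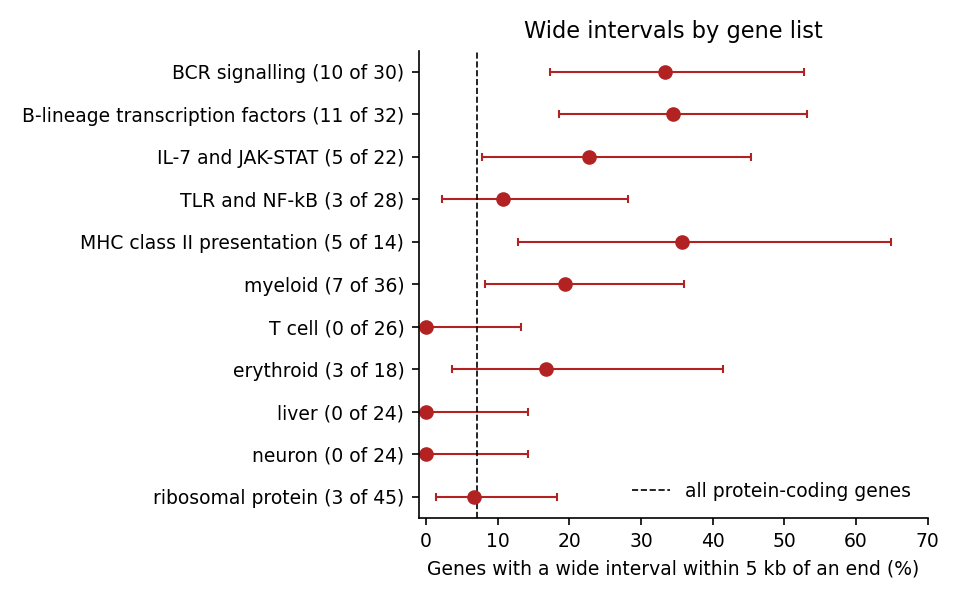
Share of each gene list (%) with a wide interval within 5 kb of an end of the gene, with Clopper-Pearson 95% intervals that cover counting error only, and the number of genes beside each name. The dashed line is the 7.07% of all protein-coding genes; the B cell receptor, B-lineage factor and MHC class II lists lie above 30%, and the T cell, liver and neuron lists are at 0.

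Of 22 genes of IL-7 and JAK-STAT signalling, 5 had a wide interval (22.7%, 7.82 to 45.4%), with a lower limit close to the 7.07% of all protein-coding genes. The feedback inhibitors Socs2 and Socs1 had the widest. Socs2 had 3852 bp at chr10:95416167-95420018 with scores of 3100 in replicate 2 and 128 in replicate 3, and Socs1 had 2945 bp at chr16:10783909-10786853 with a replicate 2 score of 1458 and no replicate 3 peak. Genes of cell survival and the cell cycle made up the rest. Mcl1, which blocks apoptosis, had intervals of 2306 bp (replicate 2 score 672.8, no replicate 3 peak) and 2187 bp (replicate 2 score 2718, replicate 3 score 214.9). Ccnd2, a D-type cyclin, had 2281 bp (replicate 2 score 697) and the apoptosis inhibitor Bcl2l1 had 2152 bp (replicate 2 score 751.5), both without a replicate 3 peak. The receptor gene Il7r had none, its widest merged interval being 1462 bp with scores of 3100 in replicate 2 and 95.46 in replicate 3.

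In the Toll-like receptor and NF-kB list 3 of 28 genes had wide intervals (10.7%, 2.27 to 28.2%), a share whose counting interval includes that of all protein-coding genes. Beside Rel, these were Nfkbie, an inhibitor of NF-kB, with intervals of 2576 and 2152 bp (replicate 2 scores of 1791 and 2602), and Nfkb2, which encodes an NF-kB precursor, with 2421 bp (replicate 2 score 1319). Neither had a replicate 3 peak. The 2152 bp interval touched Nfkbie but was centred 0.067 kb from the start of the neighbouring Slc35b2 and 8.3 kb from that of Nfkbie. Of the genes of MHC class II presentation, 5 of 14 had a wide interval (35.7%, 12.8 to 64.9%), through 4 intervals, beside 7.07% of all protein-coding genes. Within 1 kb of a gene end the count was 1 of 14, beside 5.1% of all protein-coding genes. H2-DMa and H2-DMb2, which encode chains of a peptide exchange factor, shared 2062 bp with scores of 3100 in replicate 2 and 225.7 in replicate 3. H2-DMb1 (2010 bp, replicate 2 score 2241), H2-Ob (2023 bp, replicate 2 score 1622) and the protease gene Ctss (2012 bp, replicate 2 score 1041) had no replicate 3 peak.

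Myeloid genes had wide intervals in 7 of 36 cases (19.4%, 8.19 to 36%), through 6 intervals, beside 7.07% of all protein-coding genes. The lysozyme genes Lyz1 and Lyz2 shared 2855 bp with scores of 1730 in replicate 2 and 88.95 in replicate 3. Csf2ra, a receptor chain for GM-CSF, had 2178 bp with 2 replicate 2 peaks of 2032 and 253.1, Itgb2, an integrin chain of leukocytes, had 2100 bp (replicate 2 score 1887), and the early response factor Egr1 had 2734 bp (replicate 2 score 1221), all without a replicate 3 peak. The intervals of Cd68 (2047 bp, scores of 3100 in replicate 2 and 122.7 in replicate 3) and of the adaptor gene Tyrobp (2007 bp, scores of 3100 in replicate 2 and 214.7 in replicate 3) were centred at the starts of the neighbouring genes Mpdu1 and Nfkbid. The myeloid genes Csf1r and Itgam had merged intervals of at most 1095 and 1110 bp.

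The lists for other tissues and for ribosomal proteins had between 0 and 3 members with a wide interval. No wide interval was found for any of 26 T cell genes, with an upper Clopper-Pearson 95% limit of 13.2%. None was found for 24 liver or 24 neuron genes, with an upper limit of 14.2% in each. These upper limits lie above the 7.07% of all genes, so a lower share was not detectable with lists of this size. A merged interval of any width was found for 19 of the T cell, 8 of the liver and 6 of the neuron genes. Ribosomal protein genes had wide intervals in 3 of 45 cases (6.67%, 1.4 to 18.3%), namely Rpl3 (2563 bp), Rplp2 (2095 bp) and Rps12 (2083 bp), although 41 of the 45 had a merged interval of some width. Only that of Rps12 touched its gene. The Rpl3 interval lay 4.98 kb outside the gene, and the Rplp2 interval lay 3.2 kb outside, centred at the start of the neighbouring Pnpla2. Of 18 erythroid genes found in the table, 3 had one (16.7%, 3.58 to 41.4%, a range that includes the 7.07% of all genes), namely the transferrin receptor gene Tfrc (2689 bp, scores of 3100 in replicate 2 and 536.1 in replicate 3), the cofactor gene Zfpm1 (2182 bp, replicate 2 score 659.9) and the globin gene Hbb-bt (2024 bp, scores of 3100 in replicate 2 and 349.1 in replicate 3). The globin genes have near-identical copies, and so do the lysozyme genes, so the position of those peaks is uncertain.

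Wide intervals also touched 15 of 1005 microRNA hairpins, in 11 intervals, while 70 hairpins touched a merged interval of any width. For comparison, 4.39% of all merged intervals were wide, and 4.54% of promoter windows lay wholly inside a wide interval. Those shares are of intervals and of windows wholly inside, not of hairpins touched, so neither is a matched background. Hairpins of a cluster share an interval and are not independent, and a surplus of hairpins was not tested. The cluster of Mir23a, Mir27a and Mir24-2, which are processed from a shared transcript, lay inside 2330 bp at chr8:84207399-84209728, 1214 bp from Zswim4, with scores of 3213 in replicate 2 and 147.9 in replicate 3. The main mature forms are shown because the interval covers the whole cluster, with the seed (bases 2 to 8) in capitals, from RefSeq in GRCm38.p6 and 5′ to 3′.
miR-23a-3p: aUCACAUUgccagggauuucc
miR-27a-3p: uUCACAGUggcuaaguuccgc
miR-24-3p: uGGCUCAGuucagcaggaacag
The forms differ in seed, so they form no common seed group. Mir191 also lay in a wide interval (2115 bp, replicate 2 score 467.3, no replicate 3 peak), as did Mir1934 in the interval counted for Cd68.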

How the data were processed

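Peak lists of 2 PU.1 ChIP-seq libraries (1 list per library, so peaks were called per sample) and 1 merged interval list were used. Per the submitters' processing notes, the tools were Trim Galore, Bowtie and MACS 1.4.1, on build mm10; versions of the first pair, any control used in peak calling and the making of the merged list are points not given in these sources. The input was not analysed here. The deposited score of each peak is the authors' own value, read as minus 10 times the log10 of the p-value, and was used only within its list; it depends on library depth, which is unknown here. A score near 3100 was read as its ceiling. The merged list has a score of 0 throughout and gave positions only.

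Intervals were chosen by width (2000 bp), and peaks counted as inside with 1 bp of overlap. Genes came from RefSeq tables of GRCm38.p6. Start sites came from the promoter table for 17491 of 21896 protein-coding genes, and both span ends stood in for the other 4405. Intervals were classed by their centre: within 1 kb of a start site, in a protein-coding gene, in another gene, intergenic. A gene was counted for a list with an interval within 5 kb of either end of its span. Named were the nearest genes of the 10 widest intervals, of the 10 with most replicate 2 peaks, of the 10 with the highest replicate 3 score and of those beside the threshold, up to 8 members per gene list, and 14 genes of interest. Vav3, Fli1, Spertl, the microRNAs and the motif windows shown were added after values were seen. The members, gene lists and motifs were chosen with earlier results of these data known. No test across groups was possible with 1 group, so shares carry Clopper-Pearson 95% intervals (SciPy 1.17.1, Python 3.11.15, pandas 2.3.3), which cover counting error only; neighbouring intervals are not independent. The counting functions were tested on simulated data. Alternatives are in the closing section.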

Additional observations from a re-analysis of the deposited data

How the results depend on the processing

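Counts depended most on the width threshold and on replicate 2. Of 70 alternative values, 39 stayed within 1.5 times (counts and median scores) or the 95% interval (shares), and 31 moved. With a threshold of 1500 bp there were 6924 intervals, 24.9% with a replicate 3 peak, 4.07% with 2 or more replicate 2 peaks, 30.4% at start sites and 29.2% intergenic, and 3856 genes had one within 5 kb (17.6% of protein-coding genes). Members of the lists then numbered 16 for BCR signalling, 17 for B-lineage factors, 8 for IL-7, 8 for NF-kB, 15 for myeloid, 2 for T cell, 5 for erythroid, 1 for liver, 1 for neuron and 10 for ribosomal protein genes. With 3000 bp there were 240 intervals, 40.8% with a replicate 3 peak, 12.5% with 2 or more replicate 2 peaks and 41.7% at start sites, and 207 genes. Leaving out 1 library gave between 15 (replicate 3 alone) and 2436 (replicate 2 alone) intervals, 33.3 to 40% of them at start sites and 24.3 to 33.3% intergenic, and 10 to 1725 genes. Peaks with a score of 100 or more gave a replicate 3 share of 23.5%. A start-site window of 5 kb gave 50.7%, and either span end in place of start sites, added after the data were seen, gave 36%. Counting only protein-coding genes gave 31.4% intergenic. A window of 1 kb left 1 MHC class II gene and 1 ribosomal protein gene.

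A union of both lists made here gave 2444 intervals, 39.9% of them at start sites. No paired analysis was possible because both PU.1 libraries belong to 1 group and no second group shares their numbers. The lists differ by 74494 to 6169 peaks, and library depth is unknown, so a missing replicate 3 peak does not show absence of binding.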

Other observations

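Some loci outside the gene lists were chosen after their values were seen. The surrogate light chain genes Igll1 and Vpreb1, which form part of the pre-B cell receptor, shared a wide interval of 4396 bp at chr16:16863511-16867906 with a replicate 2 score of 3226 and no replicate 3 peak. Junb, an AP-1 subunit gene, had 4300 bp with a replicate 2 score of 3100 and 2 replicate 3 peaks of 78.69 and 93.71. Actb, the beta-actin gene, had 2851 bp over the gene, with scores of 3100 in replicate 2 and 116.9 in replicate 3, and 2393 bp beside it, with scores of 3100 in replicate 2 and 1555 in replicate 3. Cux1, Elmo1 and Ptprj each had 3 wide intervals. Counted over the gene body plus 5 kb, 1784 genes had 1 wide interval, 144 had 2, 17 had 3 and 5 had 4. The last were Arhgef3, Cplx2, Cradd, Maml3 and Midn, of which Midn holds its 4 in a span of 12.4 kb.

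In the immunoglobulin kappa locus, which is rearranged in pre-B cells, 6 of 179 merged intervals were wide (3.35%, beside 4.39% of all merged intervals). They came within 1 kb of 5 of 162 V segments, while 5.1% of all protein-coding genes had a wide interval within 1 kb of an end. Neither count was thus above the share it is set beside. Those of Igkv6-23 (2926 bp), Igkv6-15 (3009 bp) and Igkv6-13 (3001 bp) had replicate 2 scores of 3100 and replicate 3 scores of 78.6, 222.5 and 225. Igkv6-17 (2531 bp) had scores of 1827 in replicate 2 and 135.7 in replicate 3, and Igkv8-30 (2133 bp) had 2005 in replicate 2 and no replicate 3 peak. V segments of the Igkv6 family, with 9 members in the table, are related in sequence, and their similarity was not measured here. The place of these peaks within the family is therefore uncertain. The constant gene Igkc had no wide interval, its widest merged interval being 1198 bp.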
